A study of Mus musculus with 2 samples.

Results

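The complement system is a cascade of plasma proteins that marks cells and debris for removal. The genes examined were 9 complement components and receptors, namely C1qa, C1qb, C1qc, C2, C3, C4b, Cfb, C3ar1 and C5ar1. They were taken by the gene name printed for each probe, which gave 12 probes, among 27343 named genes on the array, and the label C1qg, an older name for C1qc, did not occur. Of the 9 genes, 6 were well above background on at least 1 array, and 3 of these, C1qb, C2 and C3, on both.

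The tissue was mouse lens at postnatal day 1. One sample, Lens Le-Cre Msx2 CKO (CKO below), carried a conditional knockout of the homeobox gene Msx2 made with Le-Cre, in which Pax6 regulatory sequence drives Cre recombinase in the ectoderm that gives rise to lens. The other, Lens Msx2 WT, was wild type, and the sources used here do not say whether it carried Le-Cre. RNA of each was hybridised to 1 one-colour Agilent array. With 1 array per genotype there is no spread between animals, so the differences have no replicate check and no test was made, and every value describes these 2 samples. The number of animals behind each RNA was not given in the sources used here.

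C1q is the recognition molecule of the classical pathway and is built from an A, a B and a C chain, the products of C1qa, C1qb and C1qc. Bound C1q leads to cleavage of C4 and C2, which form an enzyme that cleaves C3, the protein on which all routes of activation converge, and factor B, the product of Cfb, forms the corresponding enzyme of the alternative pathway. Fragments of C3 and of C5 act through the receptors C3ar1 and C5ar1. Liver is the main source of most plasma components, whereas C1q is made largely by macrophages. Around the newborn mouse lens lie hyaloid vessels that regress after birth with the help of macrophages.

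The results turn on the probes of C1qa, C1qb, C1qc, C4b, C2 and C3. Members of the same complex, and the different probes of C2, did not give the same difference. For C3 only the downstream probe was well above background. All probes were 60 bases long. Those with at least 2 reading frames free of stop codons are shown whole, and the others by their first 30 bases, in lower case and 5′ to 3′ as the files give them.
C1qa probe: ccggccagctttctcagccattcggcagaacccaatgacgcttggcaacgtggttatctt
C1qb probe: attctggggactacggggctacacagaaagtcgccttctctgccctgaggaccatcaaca
C1qc probe, first 30 bases: tctgggaaccacctaatggtattattcctg
C4b probe: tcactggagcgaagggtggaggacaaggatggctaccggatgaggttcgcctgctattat
C2 upstream probe: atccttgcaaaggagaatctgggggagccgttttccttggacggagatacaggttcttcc
C2 downstream probe, first 30 bases: tctctagtgtggatgacccgtgctcctttt
C3 upstream probe: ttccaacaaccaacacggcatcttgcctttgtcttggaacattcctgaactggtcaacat
C3 downstream probe, first 30 bases: attcacagaatctatggtggtttatggttg

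In mm9, the build of the files, the 3 C1q probes lie within 15.9 kb on the minus strand of chromosome 4, C1qb at chr4:136436578-136436637, C1qc at chr4:136445766-136445825 and C1qa at chr4:136452409-136452468. The probe of C4b lies at chr17:34866361-34866420. The upstream probe of C2 covers chr17:35000126-35000301, and a 60-base probe over 176 genomic bases crosses a splice junction. Its downstream probe lies at chr17:34999575-34999634. For C3 the upstream probe covers chr17:57364538-57364695, likewise across a junction, and the downstream probe lies at chr17:57343416-57343475. Exon and UTR annotation in this build was not used here. No pair of the 12 member probes shared a run of more than 8 bases, and the C1qa and C1qb probes both had 55.0% G and C against 38.3% for C1qc.

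On the array labelled CKO, Msx2 gave a signal of 4.62 intensity units and was not well above background, against 371 in wild type (10 spots each), so the targeted gene was at least 22.6-fold lower in the sample labelled as the knockout. Of all probes, 55.1% in CKO and 54.2% in wild type were well above background, with no saturated spots. Defining lens genes were present on both arrays. The log2 difference (CKO minus wild type throughout) was -0.18 for the crystallin gene Cryaa and -0.37 for the fibre membrane gene Mip. The transcription factor gene Pax6 had -0.33 by its brightest probe, and 0.04 and 0.15 by its other measured probes. Differences ran from -0.33 to 0.56 over 6 lens epithelium markers and from -0.68 to 0.33 over 14 lens fibre markers. Genes well above background on both arrays are called measured. A gene well above background on 1 array only is given an at-least fold against the lowest such signal of the other array, about 16.6 units, or against its own signal there if higher. With its own signal, as for C1qc, Aif1, Pecam1, Cd55 and C5ar2, the value is the plain ratio and not a lower bound. It is counted with the at-least folds. Among 126 probes printed repeatedly, 1 spot's log2 difference varied with an SD of 0.26, or 0.097 for the brighter 63 and 0.36 for the dimmer 63. Probes of a gene differed from one another with an SD of 0.36 (4847 genes).

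The complement genes fell apart by level and by difference. C1qa, C1qc and C3 were far higher in the CKO lens, C1qb and the brighter probe of C2 were nearly equal on the 2 arrays, and C4b, Cfb, C3ar1 and C5ar1 lay near or below the limit of detection. Thus 3 of the 9 members, and of the 6 well above background on at least 1 array, were higher in CKO by 2-fold or more, with at-least folds counted, and 0 were lower by as much. Among all 16152 genes well above background on at least 1 array, 5.92% were higher and 4.85% lower by the same rule. Of the 6 members well above background somewhere, 3 (C1qa, C1qc and C4b) were so in CKO only, and 6.62% of all such genes were. The median log2 difference was -0.02 over the 3 measured members and -0.12 over all 14221 measured genes, and with genes seen on 1 array set at their bound it was 1.93 over 6 members and -0.11 over all genes. The 6 members lay far apart, between -0.03 and 5.61, so neither median stands for them.

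**Figure D1:**
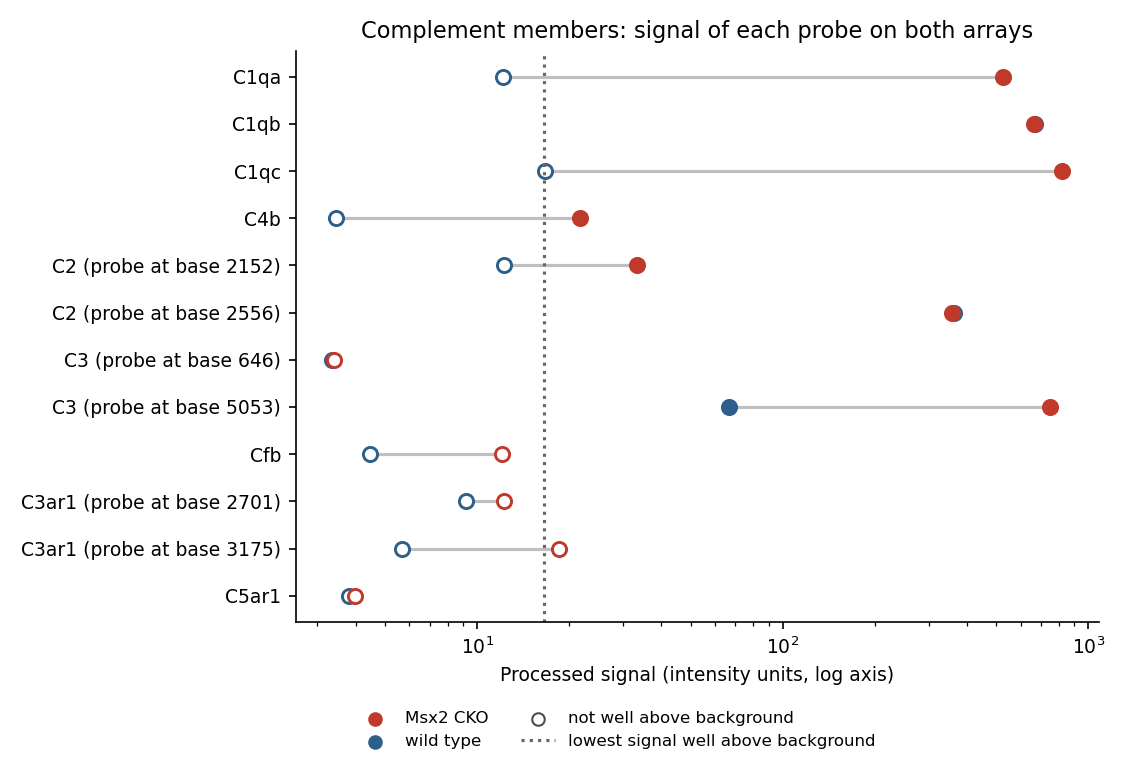
Processed signal of each complement probe on a log axis in intensity units, 1 row per probe, with CKO in red and wild type in blue; open circles were not well above background and the dotted line is the lowest signal that was. C1qa, C1qc and the downstream C3 probe (base 5053) are far apart on the 2 arrays, C1qb and the downstream C2 probe (base 2556) overlap, and the probes of Cfb, C3ar1 and C5ar1 are open on both.

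The 3 C1q chains differed from each other. C1qa, the A chain gene, gave 525 ± 52.7 units of intensity in CKO against 12.1 ± 5.15 in wild type, where the error is the scanner software's own estimate for the single spot. It was well above background in CKO only and therefore at least 31.5-fold higher. C1qc, the C chain gene, gave 820 ± 82.0 in CKO and 16.7 ± 4.18 in wild type, where it too was not well above background. It was 48.8-fold higher, a plain ratio of the scaled signals and not a lower bound. Both wild-type signals were marked by the software as positive and significant, although below its stricter mark.

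C1qb, the B chain gene, gave 665 ± 66.6 units in CKO and 668 ± 66.9 in wild type, well above background on both arrays. Its log2 difference was -0.02, smaller than the single-spot SD of 0.097 among bright repeated probes, and it ranked 5777 of 14221 measured genes by the excess in CKO. In the CKO lens all 3 chains were therefore detected, and in wild type the B chain alone was well above background. The raw spot means, before background subtraction, showed the same: 456 against 63.8 for C1qa, 896 against 75.5 for C1qc and 760 against 746 for C1qb, over local backgrounds of 32 to 41. Each chain had a single probe with a single spot per array, so no chain's value could be set against that of another probe.

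C3, the central component, had a pair of probes, of which only the downstream one was well above background. The downstream probe, printed as 10 spots per array, gave 746 ± 24.2 units in CKO (SD over 10 spots, range 718 to 791) and 66.7 ± 2.31 in wild type (SD over 8 spots, range 63.2 to 69.4). The spots of the 2 arrays did not overlap, and spots of 1 array measure the array and not the animals. C3 was 11.1-fold higher in CKO by this probe, a log2 difference of 3.48 and rank 13 of the 14221 measured genes. Among the wild-type spots 2 had been marked as outliers, at 74.5 and 75.7 units, and with them the log2 difference was 3.44. The upstream probe gave 3.40 units in CKO and 3.35 in wild type and was not well above background on either array, so it gives no fold. Its start is listed at base 646 of the transcript and that of the downstream probe at base 5053.

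C2, the protease that joins C4 in the classical enzyme, had probes that disagreed. The downstream and brighter probe gave 358 ± 36.1 units in CKO and 363 ± 36.6 in wild type, a log2 difference of -0.03. By contrast the upstream probe, across the splice junction, gave 33.4 ± 4.97 in CKO and 12.2 ± 3.76 in wild type. It was well above background in CKO only and at least 2-fold higher, with its bound barely past that threshold. The gene is counted by its brighter probe, and so not as 2-fold higher. The upstream probe's bound was 1.84-fold under median scaling and 1.27-fold under normexp background correction.

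C4b, which encodes the C4 protein cleaved by the classical and lectin pathways, was dim. Its probe gave 21.7 ± 4.04 units in CKO and 3.46 ± 3.46 in wild type, and it was well above background in CKO only, but just so, with an at-least fold of 1.30. The probe record in the file lists transcripts of both C4b and the near-identical C4a, so the signal cannot be given to C4b alone. A probe named C4a was not well above background on either array (4.79 and 6.14 units). A further probe within the C4a region, named only by an Ensembl transcript that the C4b record also lists, gave 104 ± 10.9 units in CKO and 69.3 ± 7.70 in wild type, a log2 difference of 0.57. That probe falls outside the choice of members.

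Cfb, the protease of the alternative pathway, gave 12.1 units in CKO and 4.46 in wild type, and both were not well above background. For C3ar1, the receptor of the small C3 fragment found on myeloid cells, the downstream probe gave 18.6 and 5.66 units and the upstream probe 12.2 and 9.22, again not well above background on either array. C5ar1, the receptor of the small C5 fragment on neutrophils and macrophages, gave 3.97 and 3.79 units, at the lower end of all signals. No fold is given for these 3 genes. Among the 4 probes, Cfb and the downstream C3ar1 probe were marked positive and significant in CKO and not in wild type.

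Processing moved the size of the C1q and C3 differences but not their side of 2-fold. Under normexp background correction, which adds an offset of 50 to every spot, C1qa was at least 5.95-fold higher, C1qc 10.5-fold and C3 6.01-fold. The C4b bound was 1.23-fold. In the authors' deposited table of log2 values C1qa was 9.27 in CKO and 3.66 in wild type, C1qc 9.90 and 4.18, C3 9.76 and 6.28, and C1qb 9.61 and 9.54. The differences of C1qb ranged from -0.14 to 0.07 over all settings tried, and those of the brighter C2 probe from -0.15 to 0.08, so neither has a settled direction.

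**Figure D2:**
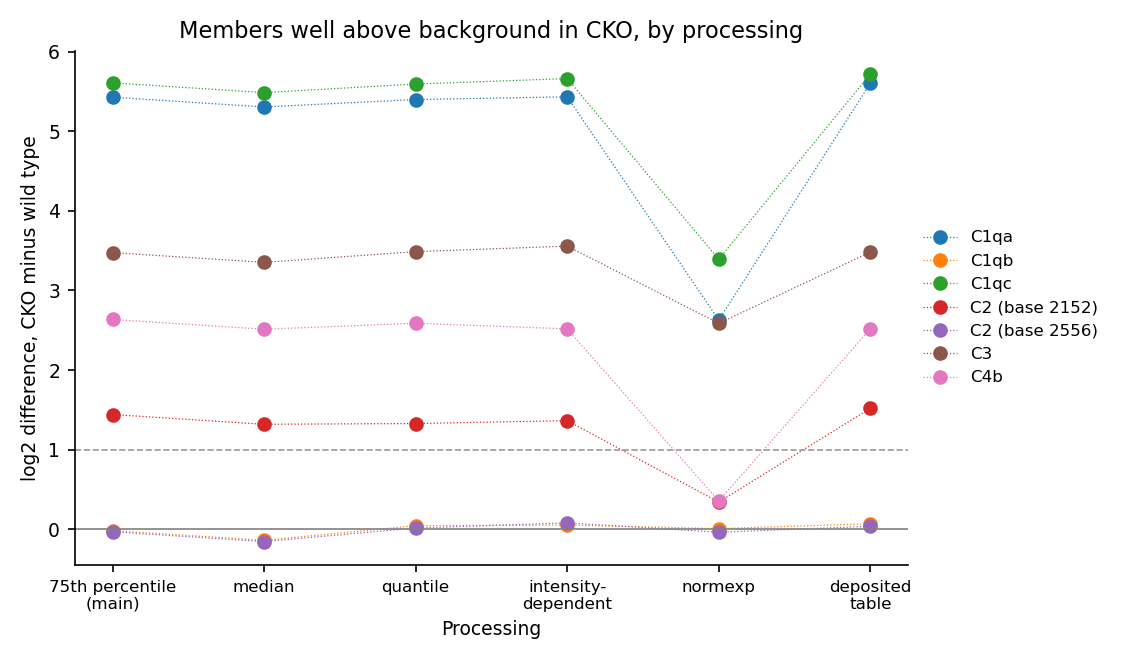
Log2 difference (CKO minus wild type, vertical axis) of each member probe well above background in CKO under 6 kinds of processing, with the dashed line at 2-fold; points of C1qa, C1qc, C4b and the upstream C2 probe (base 2152) use wild-type signals not well above background and are no bounds. C1qa, C1qc and C3 stay above the line throughout, while C4b and the upstream C2 probe drop to 0.36 and 0.34 with normexp.

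The rest of the pathway was examined through 50 other complement genes in a list by role, all of which were on the array. Of these 19 were measured, 7 were well above background in CKO only, 3 in wild type only and 21 on neither. With at-least folds counted, 7 of the 29 well above background on at least 1 array were higher in CKO by 2-fold or more and 2 were lower. Of all 16152 genes with that detection, 5.92% and 4.85% were. Their median log2 difference was 0.06 over the measured genes and 0.11 over 29 with bounds, where all genes had -0.12 and -0.11. Under normexp the counts past 2-fold became 3 (higher) and 2 (lower) of the 29. The same processing gave 320 and 238 of all 16152 genes.

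Among the initiators, Fcna, the gene of ficolin A, a lectin pathway recognition protein, gave 177 units in CKO and 21.3 in wild type and was 8.24-fold higher. With normexp its log2 difference fell from 3.04 to 1.47. C1s1, the gene of the C1s protease that acts with C1q, gave 56.2 and 26.9 units and was 2.08-fold higher. C1ra, the gene of its partner protease C1r, was not well above background on either array (11.8 and 4.66 units). Of 12 initiators 6 were in that position, and Colec11, the gene of a collectin, was 1.67-fold lower.

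For the alternative pathway, Cfp, the gene of properdin, which stabilises the C3-cleaving enzyme, gave 764 units in CKO and 332 in wild type and was 2.28-fold higher, but with normexp its log2 difference was 0.95, short of 2-fold. Cfd, the gene of the protease that activates factor B, was not well above background on either array. In the terminal pathway, whose proteins form the membrane attack complex, 6 of 7 genes were not well above background on either array. C8a was the exception, with a log2 difference of -0.40.

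Soluble regulators restrain the cascade in body fluids. Of the 10 genes of this role 2 were higher in CKO by 2-fold or more and 1 was lower. The median log2 difference was 1.13 over the 4 measured and 0.28 over 6 with bounds. The 4 lay far apart on both sides of 0, so neither median stands for them. With normexp 1 was higher and 1 lower. Clu, the gene of clusterin, a chaperone that also binds terminal complexes, was bright on both arrays (10368 and 24088 units) and 2.34-fold lower in CKO. Serping1, the gene of the C1 inhibitor, had a log2 difference of 0.45.

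Membrane regulators protect the body's own cells from complement. Susd4, which encodes a membrane inhibitor, gave 310 units in CKO and 809 in wild type and was 2.63-fold lower. The log2 difference was 0.40 for Cd59a, which blocks the membrane attack complex, and 0.48 by its other probe, and 0.06 for Cr1l, the main inhibitor of C3 deposition on mouse cells. Cd55, which speeds decay of the C3-cleaving enzymes, was well above background in CKO only, by 1.39-fold, and Csmd1 in wild type only, by at least 1.65-fold. Of the 8 genes of this role 0 were past 2-fold on the higher side.

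Among receptors and binding partners, Itgax, the gene of the CD11c chain of complement receptor type 4, gave 186 units in CKO and 4.22 in wild type and was at least 11.1-fold higher. With normexp its bound on the log2 scale fell from 3.48 to 1.54. Itgam, the CD11b chain of complement receptor type 3, gave 6.30 and 21.8 units, was well above background in wild type only and was at least 1.33-fold lower. Itgb2, the beta chain that both share, had a log2 difference of 0.66. Cd93, an endothelial and myeloid receptor first described as a C1q receptor, was 2.07-fold higher by its brighter probe, and its other probe had a log2 difference of 1.88. C5ar2, the second receptor of the C5 fragment, was well above background in CKO only, by 1.99-fold, and Cr2, a receptor of B cells, had a log2 difference of -0.70.

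**Figure D3:**
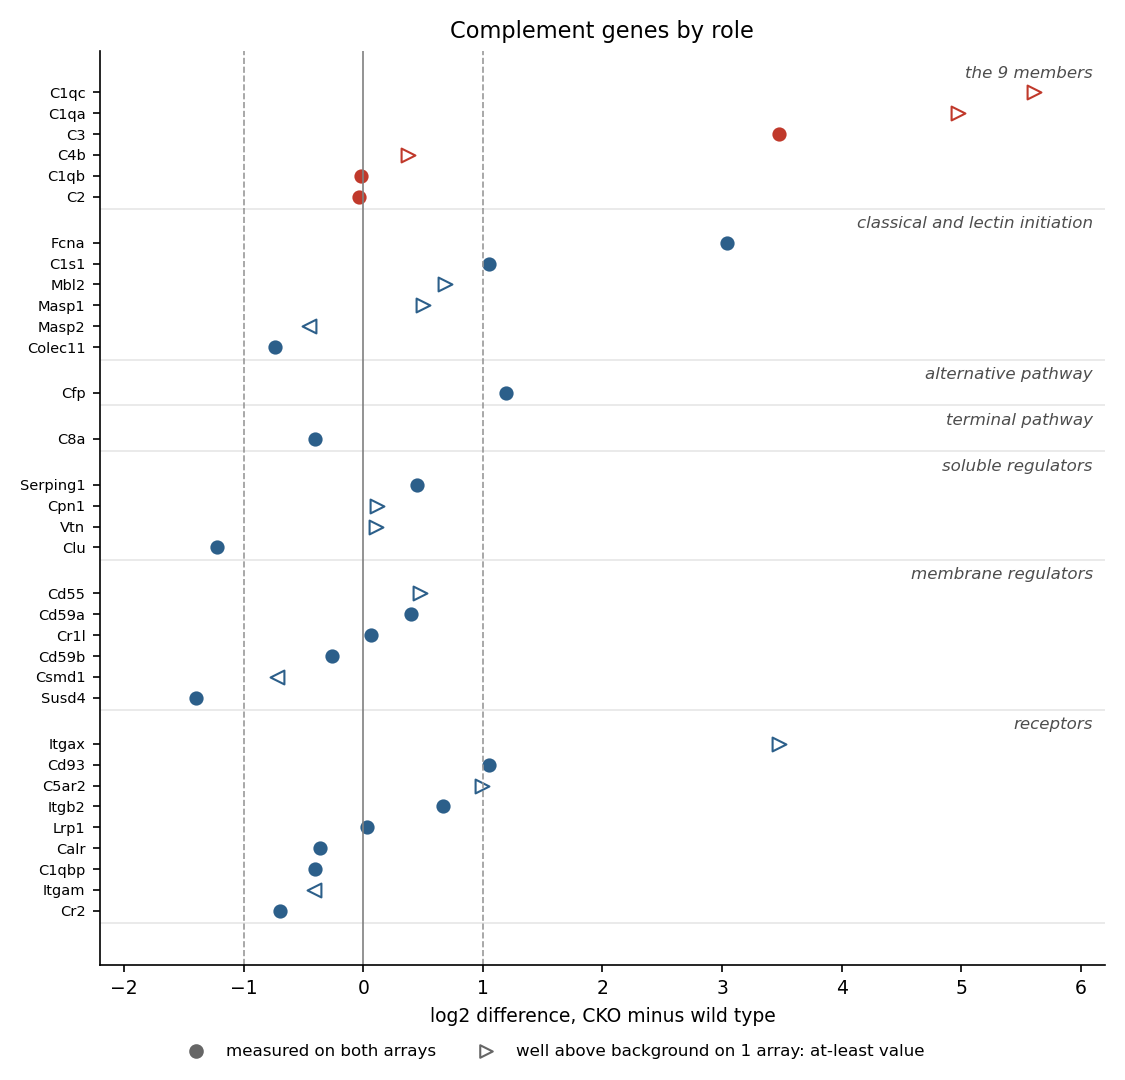
Log2 difference (CKO minus wild type, horizontal axis) of the complement genes reported by name and well above background on at least 1 array, by role, with the 9 members in red; filled circles were measured on both arrays, triangles are at-least values and dashed lines mark 2-fold. C1qc, C1qa, Itgax, C3 and Fcna lie farthest to the right, and Susd4 and Clu are the only genes shown left of the lower line.

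The members were also set beside the measured genes nearest to them on the chromosome. The 6 nearest measured named genes around the C1q cluster had log2 differences from -0.59 (Hspg2, 674 kb away) to 0.39 (Zbtb40, 83.4 kb away), and 0 of them differed by 2-fold. Around C3 the 6 neighbours lay between -0.40 (Tubb4a) and 0.88 (Trip10), again 0 of them past 2-fold. The 10 around and between C4b, Cfb and C2 lay between -0.38 (Nelfe) and 0.50 (Stk19).

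The RefSeq table of promoters, build GRCm38.p6, held 5 of the 9 members. The 250 bases before the start are shown for C1qc and C1qb, neighbours with unlike differences, and for C3. Searched on both strands were TATAAA, GAGGAAGT (a PU.1 form), GAAANNGAA (IRF), TTCNNNGAA (STAT), TTNNGCAAT (C/EBP) and the kappaB motif by its name, and capitals mark the matches.
C1qc promoter, chr4:136892915-136893164, minus strand: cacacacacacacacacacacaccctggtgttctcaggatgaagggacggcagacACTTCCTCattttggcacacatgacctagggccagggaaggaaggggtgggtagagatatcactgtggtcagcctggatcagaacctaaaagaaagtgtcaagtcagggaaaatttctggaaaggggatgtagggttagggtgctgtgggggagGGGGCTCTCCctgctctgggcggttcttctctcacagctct
C1qb promoter, chr4:136886201-136886450, minus strand: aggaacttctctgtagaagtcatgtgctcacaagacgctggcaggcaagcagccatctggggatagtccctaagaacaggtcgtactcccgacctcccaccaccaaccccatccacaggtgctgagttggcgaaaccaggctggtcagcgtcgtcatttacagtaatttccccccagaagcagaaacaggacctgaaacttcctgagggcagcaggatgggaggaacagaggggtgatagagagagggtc
C3 promoter, chr17:57228137-57228386, minus strand: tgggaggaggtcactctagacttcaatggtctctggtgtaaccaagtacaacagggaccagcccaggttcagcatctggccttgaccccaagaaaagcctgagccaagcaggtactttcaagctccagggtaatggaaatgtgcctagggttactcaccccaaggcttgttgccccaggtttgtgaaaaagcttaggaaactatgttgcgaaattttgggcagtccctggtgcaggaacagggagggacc

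In C1qc the GAGGAAGT form matched on the opposite strand, 195 to 188 bases before the start, and a kappaB match lay 41 to 32 bases before it. Of all 32851 promoter windows of this length, 2.44% held GAGGAAGT and 3.90% a kappaB match. None of the 6 motifs matched in the windows of C1qb and C3, which says only that these letters are not there. C3ar1 had TATAAA (in 12.4% of all windows) 235 to 230 bases before its start and C5ar1 GAAANNGAA (7.13%) on the opposite strand.

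Markers of other cells were higher in CKO along with C1qa, C1qc and C3, though not with C1qb. Of 24 macrophage markers 11 were measured, 9 were well above background in CKO only and 1 in wild type only, with 14 higher by 2-fold or more (12 with normexp) and 0 lower. The median over the 11 measured was 2.16. Summed over the markers, the signal was 66.9 times the 75th percentile of the array in CKO and 23.7 times in wild type. Csf1r, the receptor for macrophage colony-stimulating factor, was 3.87-fold higher, Cd68 at least 7.78-fold, Adgre1, a macrophage surface receptor gene, at least 17.4-fold and Aif1 9.42-fold. The largest measured differences in the list were 5.40 for Ctss, 4.55 for Trem2, 4.05 for Tyrobp and 2.96 for Mpeg1. The C1qa bound, 4.98, and the C1qc difference, 5.61, lay in and above the range of these markers, while C1qb at -0.02 lay below all 11 measured ones.

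Of 10 stromal markers 8 were past 2-fold higher (7 with normexp), with summed signals of 61.5 and 5.41 times the 75th percentile. Col1a1 was at least 14.4-fold higher, Lum at least 53.1-fold and Dcn at least 344-fold, but Pdgfra had a log2 difference of -0.08. Of 10 endothelial markers 9 were past 2-fold higher, with summed signals of 28.4 and 9.27, Cdh5 at 2.19-fold and Pecam1 at 3.72-fold. With normexp 4 of the 10 were, and the log2 difference was 0.60 for Cdh5 and 0.69 for Pecam1, both short of 2-fold. Pigment cell markers, summed at 2.15 and 0.444, were past 2-fold higher in 4 of 6 genes, with Tyrp1 at least 2.29-fold and Tyr not well above background on either array. With normexp 1 of the 6 was, Dct, and the bound of Tyrp1 was 0.38 on the log2 scale. Pericyte markers were past 2-fold higher in 3 of 6 genes (1 with normexp, Rgs5), with summed signals of 28.2 and 24.9. Rgs5 was 2.42-fold higher, whereas the other defining marker, Pdgfrb, had a log2 difference of -0.28. Acta2 had -0.07 by its brightest probe, but its other measured probes had 1.18 and 1.43. Of 8 neutrophil markers on the array 0 were past 2-fold higher and 1 lower, and the defining genes S100a8 and S100a9 were not well above background on either array. Lymphocyte markers had 1 higher and 1 lower of 8, red cell markers 0 higher and 1 lower of 4 on the array, and surface epithelium 0 higher and 2 lower of 6. The 6 lens epithelium and 14 lens fibre markers had none past 2-fold, with medians of -0.09 and -0.19. In bulk lens RNA, fewer cells of a type and less RNA per cell cannot be told apart. The part of these cells in the complement differences was not tested.

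**Figure D4:**
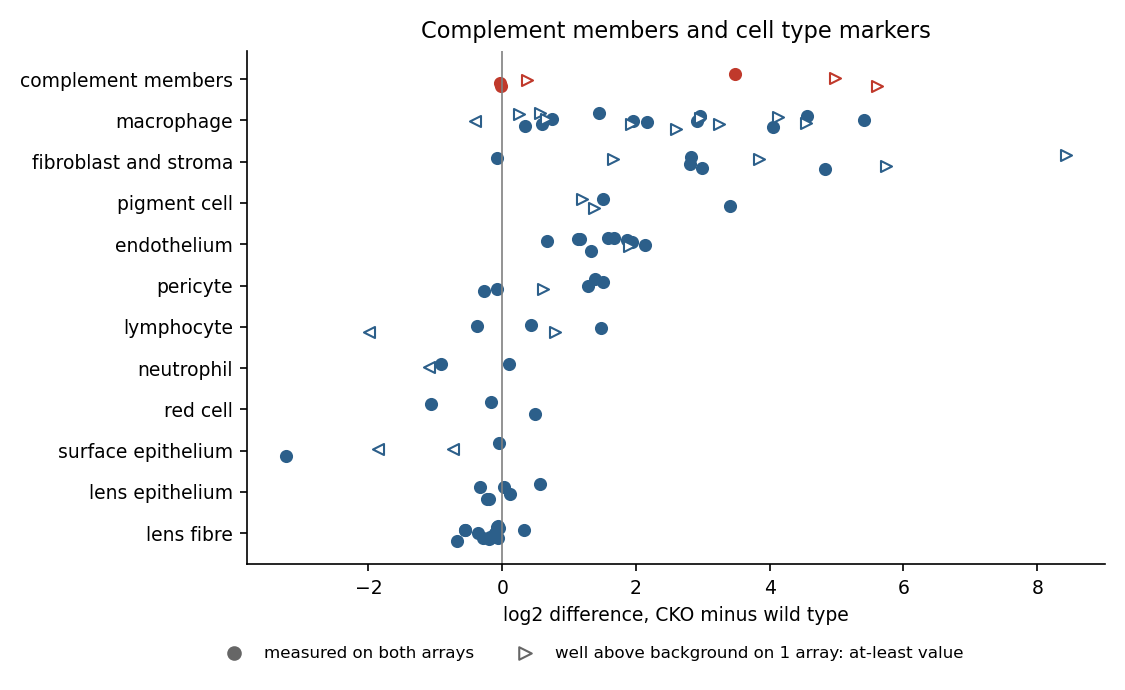
Log2 difference (CKO minus wild type, horizontal axis) of the complement members in red and of each marker of 11 cell type lists in blue; filled circles were measured on both arrays and triangles are at-least values, with a small vertical scatter for legibility. Macrophage, stromal, pigment and endothelial markers lie mostly to the right of 0 with C1qa, C1qc and C3, while lens markers lie near 0 with C1qb and C2.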

How the data were processed

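The authors deposited 1 scanner file per array. Per the file headers, spots were read in 1 channel with Feature Extraction 10.7.3.1 and the processed intensity had been detrended across the array, with background correction by local values switched off. A further table deposited by the authors holds log2 values, with scaling not given in the sources used here. Its medians were 4.87 in both columns, and its differences ran in the direction of the scanner values (r = 0.990 across probes, which are not replicates). Each array's processed intensity was divided by its 75th percentile over spots that are not controls, then put on the log2 scale. Outlier spots (127 in CKO, 169 in wild type) were left out before averaging within a probe. Probes counted as well above background when over 50% of their spots carried that mark, and a gene took its brightest measured probe. Other genes were renamed through a RefSeq table (GRCm38.p6, names only), by accession for 27668 probes, by symbol for 5589 and by an older symbol for 471, and 7446 kept their name. Normexp used limma 3.58.1 in R 4.3.3, other steps Python 3.11.15. The 2-fold calls were tested on simulated data made from brighter probes only. That test says nothing about dim genes or about the size of at-least folds.

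The members and gene lists were chosen with earlier results of these data known. Named were all members, other complement genes at least 2-fold apart or with the largest differences in their role, and the nearest measured neighbours. Some defining markers and the largest differences among macrophage markers were named too. Other markers are given by counts. Some genes are counted in the lists but not reported here by name. The number of arrays limits the precision.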

Additional observations from a re-analysis of the deposited data

How the results depend on the processing

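The count of members at least 2-fold higher was 5 with no filter on detection, 4 when genes well above background on at least 1 array were taken at their measured differences, and 3 under the other alternatives, while the count lower was 0 throughout. Their median log2 difference was 1.43 with no filter and 3.06 with genes well above background on at least 1 array. For the other complement genes that last filter gave a median of 0.45. They numbered 11 higher and 4 lower with no filter, 3 higher with normexp, 4 higher and 0 lower at 3-fold and 5 lower at 1.5-fold. With intensity-dependent centring, and likewise in the deposited table, 1 was lower, Clu being the gene lost. Over all genes, 320 were higher and 238 lower with normexp, 2026 and 1753 with no filter, 1950 and 2543 at 1.5-fold, and 403 and 193 at 3-fold, against 956 and 783. Scaling to the median made 41.6% of the genes past 2-fold higher, against 55.0%, and moved the median of all measured genes from -0.12 to -0.24. Normexp lowered the log2 differences of C1qa to 2.63, C1qc to 3.39, C3 to 2.59 and C4b to 0.36. C1s1 and Cd93 were not past 2-fold with median scaling or normexp, nor Cfp with normexp, nor C1s1 with quantile normalization. Under the file's own names the signals stayed the same and only the naming changed. C1s1 then dropped out of the count, and 18 other complement genes were measured instead of 19. The cause of the other moves was not tested. No paired analysis was possible because each genotype has 1 array, so the groups share fewer than 2 replicate numbers. Signal over background limits Cfb, C3ar1, C5ar1, C4b and both wild-type values of C1qa and C1qc.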

Other observations

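The neighbours of the receptors that were not detected included genes past 2-fold. Near C3ar1 on chromosome 6, 1 of 6 measured neighbours differed by 2-fold, Rimklb (2.78-fold lower, 401 kb away), and Foxj2, 3.01 kb away, had a log2 difference of 0.35. Near C5ar1 on chromosome 7, 2 of 6 did, Kptn (2.19-fold lower) and Bbc3, a pro-apoptotic gene (2.64-fold higher, 69.5 kb away).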
